A study of Mus musculus with 96 samples.

Results

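The genes described here are 7 genes of the megakaryocyte and platelet lineage: Pf4, Itga2b, Gp9, Gp1bb, Itgb3, Vwf and Nfe2. They were taken by gene symbol from a table of raw read counts, where they are 7 of 19836 gene symbols, and all 7 had at least 30 reads. The table holds 96 single cells of C57BL/6 mouse embryos, 1 sorted cell per well, in a study of how pre-haematopoietic stem cells (pre-HSCs) become haematopoietic stem cells (HSCs). At E11.5 there were 48 pre-HSCs of the AGM (aorta-gonad-mesonephros) region and 16 of the yolk sac, both sorted as Ter119-CD11b-CD144+c-kit+EPCR+. The other cells were fetal liver HSCs, 16 from E12.5 embryos sorted as Ter119-Sca-1+c-kit+EPCR+ and 16 from E14.5 embryos sorted as Ter119-Sca-1+c-kit+CD48-CD150+. CD144 is the endothelial cadherin encoded by Cdh5 and EPCR is the endothelial protein C receptor, and no gate used the product of any of the 7 genes. Tissue, age and gate changed together between E11.5 and the livers and cannot be told apart. Age and gate also changed together between the E12.5 and E14.5 livers, and these cannot be told apart either.

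Megakaryocytes are the large bone marrow and fetal liver cells that shed platelets, and they arise from the same early progenitors as red cells and directly from some HSCs. Platelets carry a von Willebrand factor receptor (the GPIb-IX-V complex, to which Gp1bb and Gp9 contribute) and a fibrinogen receptor (integrin αIIbβ3, encoded by Itga2b and Itgb3), and they store Pf4 and Vwf in α-granules, while Nfe2 drives late platelet formation. Several of these genes are also known outside the lineage: Itga2b (CD41) marks the first blood cells that emerge in the embryo, Vwf and Itgb3 are transcribed in endothelium, Pf4 in some macrophages, and Nfe2 across erythroid and early progenitor cells.

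No animal or litter is named in the labels, so a group counts as 1 sample, no difference below has a replicate check, and no test was made. Levels are pooled reads of a group scaled to a common total, as CPM, with an exact 95% interval from the Poisson distribution, and a share of cells is given with its exact Clopper-Pearson 95% interval. No molecular identifiers are named, so PCR reads are not independent molecules and all intervals and floors cover counting error only. Cells held 250235 to 1926882 reads, and the median cell had reads of 5522.5 genes in AGM, 5349.5 in yolk sac, 4036 in liver at E12.5 and 4839 in liver at E14.5. More than 9000 genes were detected in 4 AGM cells (1, 5, 8 and 36), 3 yolk sac cells (1, 2 and 3), 1 E12.5 cell (cell 1) and 0 E14.5 cells. E12.5 cell 8 stood apart with 1011 genes and a summed level of 26991 CPM over 12 macrophage markers. That well also had the highest sum of its group over 10 erythroid markers, 9359 CPM. E14.5 cells 3, 8, 13 and 16 stood apart with 39178 to 190221 CPM over the same 10 erythroid markers.

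A promoter table from RefSeq (GRCm38.p6) matched 4 of the 7 genes: Pf4, Itga2b, Gp9 and Gp1bb. The 250 bases before the RefSeq start of Pf4 (chr5:90772185-90772434, plus strand), Itga2b (chr11:102469884-102470133, minus strand) and Gp9 (chr6:87777820-87778069, plus strand) are shown because these 3 genes, which serve a granule, an integrin and a receptor, were found together in some E11.5 cells. For Itga2b that start, base 102469883, is also the start of a protein-coding transcript in GENCODE, and 239 of the bases shown lie inside the wider GENCODE gene because 1 non-coding transcript begins at base 102470122. Capitals mark ETS words (AGGAAG or CGGAAG) and a RUNX word (TGTGGT), each on either strand.
Pf4: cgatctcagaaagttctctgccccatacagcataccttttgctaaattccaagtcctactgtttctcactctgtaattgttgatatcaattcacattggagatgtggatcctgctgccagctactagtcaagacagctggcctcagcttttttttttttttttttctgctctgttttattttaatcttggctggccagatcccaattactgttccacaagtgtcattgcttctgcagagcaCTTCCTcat
Itga2b: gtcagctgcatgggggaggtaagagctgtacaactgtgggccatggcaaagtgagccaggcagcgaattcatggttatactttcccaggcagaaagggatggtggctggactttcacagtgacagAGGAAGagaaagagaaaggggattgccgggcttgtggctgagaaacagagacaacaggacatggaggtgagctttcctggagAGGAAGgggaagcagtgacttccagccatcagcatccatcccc
Gp9: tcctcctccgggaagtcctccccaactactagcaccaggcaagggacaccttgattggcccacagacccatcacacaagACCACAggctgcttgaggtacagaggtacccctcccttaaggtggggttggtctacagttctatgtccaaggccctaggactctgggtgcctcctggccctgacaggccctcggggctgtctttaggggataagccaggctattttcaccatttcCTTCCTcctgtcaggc

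Over the full windows, which run on to 50 bases past the start, an ETS word was present in 4 of 4 of these genes and in 46.5% of 32851 promoter windows of the same length. A RUNX word was present in 1 of 4 (Gp9) and in 16.8% of windows. A GATA word (AGATAA or TGATAA) was present in 1 of 4, in Pf4 at bases 37 to 42 after the start and so outside the bases shown, and in 18.6% of windows. The NF-E2 word TGAGTCA was present in 0 of 4 and in 5.20% of windows. No matched words overlapped, and the matches describe letters in these windows only. The window of Gp1bb lies in an annotated untranslated exon of the neighbouring gene Sept5 and is not shown.

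Within the E11.5 AGM group, every gene of the set was detected, and at least 1 of the 7 had a read in all 48 cells. Nfe2 (43 of 48 cells) and Vwf (39 of 48) were the most widely detected, followed by Itgb3 (30), Itga2b (26), Gp9 (24), Pf4 (20) and Gp1bb (2). Levels between genes were compared per kilobase of annotated exon: in AGM, Nfe2 stood at 75.3 CPM per kb, Gp9 at 41.5, Pf4 at 32.7, Vwf at 14.51, Itga2b at 9.98, Itgb3 at 8.28 and Gp1bb at 1.18. The order by level thus differed from the order by detection, with Vwf detected in more cells than Gp9 at a lower level per length. Nfe2 was also the highest per kb in the other groups, for example 103.6 in yolk sac and 171.8 in liver at E14.5, and Gp9 was second in yolk sac and both livers, at 99.3, 97.2 and 47.97 CPM per kb.

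**Figure D1:**
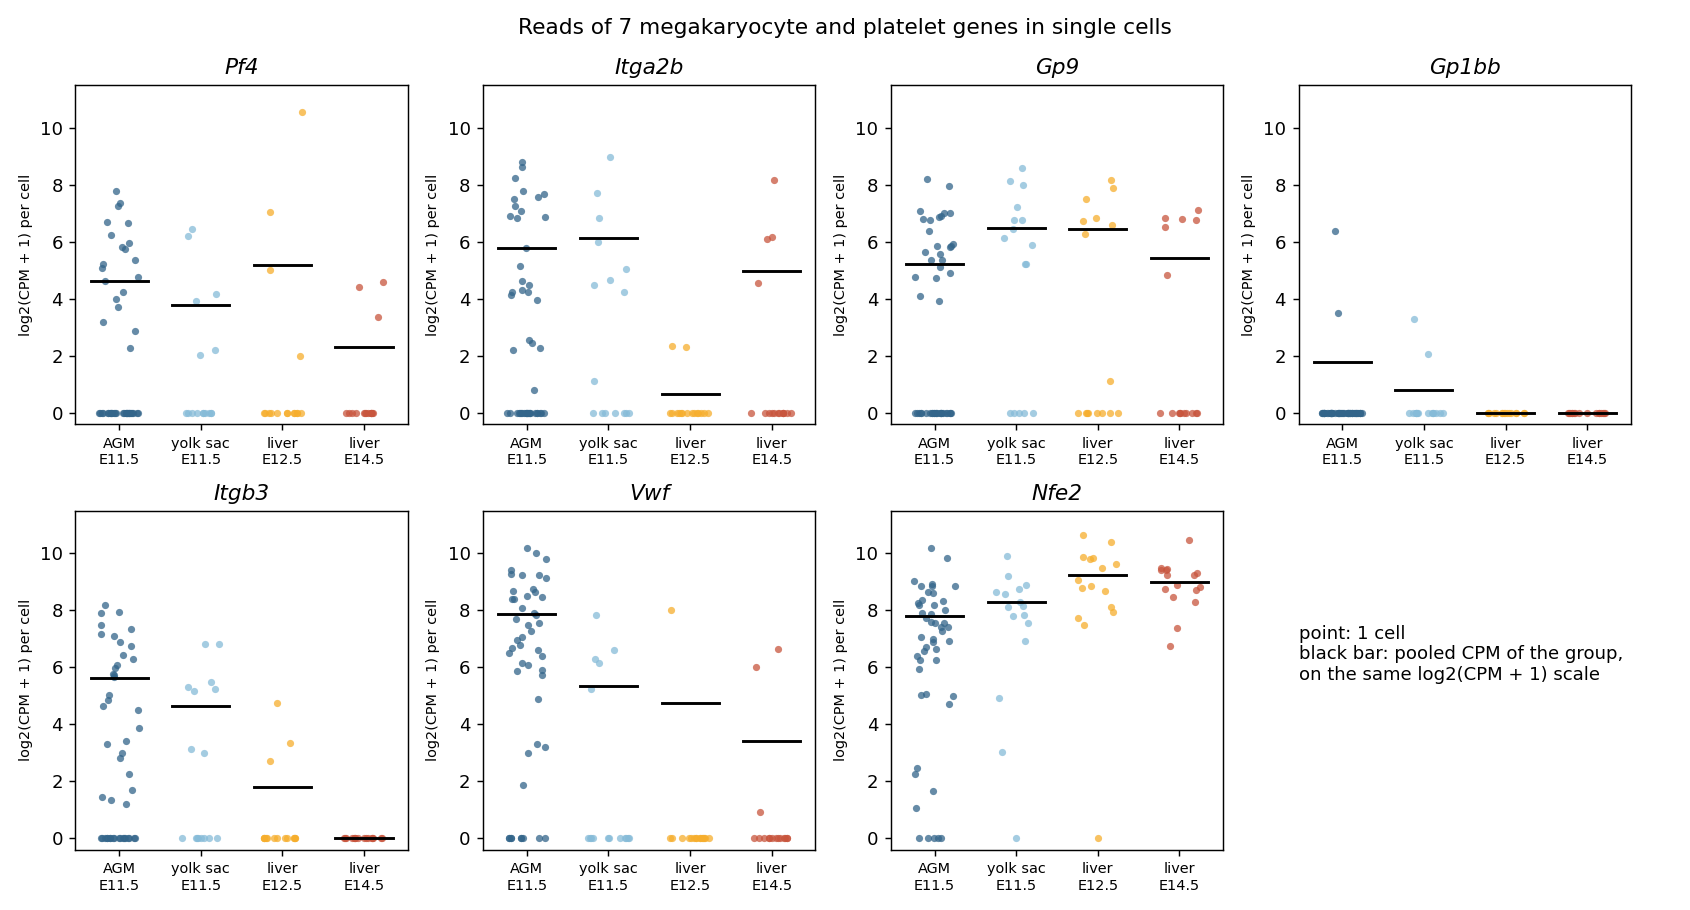
Level of each of the 7 genes in each of the 96 cells, as log2(CPM + 1), by group; each point is a cell and the bar marks the pooled CPM of the group on the same scale. Nfe2 has reads in nearly all cells of every group, whereas Itgb3 and Itga2b are at 0 in most fetal liver cells and Vwf is widely detected in AGM only.

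The labels give 3 contrasts: yolk sac against AGM at E11.5, E12.5 liver against AGM, and E14.5 against E12.5 liver. Yolk sac and E12.5 liver are set against the same AGM cells, and the E12.5 cells enter both liver contrasts. A ratio is the log2 ratio of pooled CPM after 1 CPM was added, which understates changes of low genes, and a gene was called when that ratio passed 2-fold. A stricter rule also asked that no single cell hold more than 50% of the reads of the higher group.

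Yolk sac pre-HSCs had less Vwf and more Gp9 than AGM pre-HSCs, and the other members lay between. By the 2-fold rule 1 of 7 genes was higher in yolk sac (Gp9, log2 ratio 1.24), where 8.83% of 14858 genes were, and 2 of 7 were lower (Vwf, -2.54, and Gp1bb, -1.01), where 21.6% were. With the stricter rule Gp9 and Vwf were left, 1 higher and 1 lower, against 3.64% and 13.2% of all genes. Itgb3 (-0.99) and Pf4 (-0.85) lay short of 2-fold below AGM, and Nfe2 (0.46) and Itga2b (0.33) lay slightly above. The median ratio of the 7 was -0.85, against -0.23 over all genes. Without AGM cell 23, which held 91.9% of the AGM reads of Gp1bb, the median of the 7 changed sign.

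In E12.5 liver the fibrinogen receptor genes and Vwf were far below AGM, and Nfe2 and Gp9 were above it. There, 4 of 7 genes were lower, Itga2b (-5.13), Itgb3 (-3.85), Vwf (-3.13) and Gp1bb (-1.79), where 26.7% of 14871 genes were, and 2 of 7 were higher, Nfe2 (1.42) and Gp9 (1.21), where 16% were. The stricter rule left 3 lower, all but Gp1bb, and 2 higher, against 17.4% and 6.25% of all genes. Pf4 lay at 0.56, and the sign of that value rested on E12.5 cell 8, without which it was -0.56. The median of the 7 was -1.79, against -0.24 over all genes. That median is the ratio of Gp1bb itself, which drew 91.9% of its AGM reads from cell 23. Without AGM cell 23 the median came close to that of all genes.

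Between the livers, Itga2b was higher at E14.5 and Pf4, Itgb3, Vwf and Gp9 were lower, and for 4 of these 5 genes a single cell held more than 50% of the reads of the higher group. By the 2-fold rule 1 of 6 tested genes was higher at E14.5 (Itga2b, 4.31), where 22.2% of 12825 genes were, and 4 were lower, Pf4 (-2.88), Itgb3 (-1.79), Vwf (-1.34) and Gp9 (-1.001), where 21.6% were. With the stricter rule 0 were higher and 1 was lower (Gp9), against 8.12% and 7.13% of all genes. Without E12.5 cell 2, which held all the Vwf reads of its group, the Vwf ratio was 3.41 in the opposite direction. Nfe2 differed by -0.23, and Gp1bb had 0 reads in both livers and no ratio. The median of the 6 was -1.17, against -0.07 over all genes.

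Gp9 (chr6:87778072-87779768) encodes glycoprotein IX, a small subunit that the von Willebrand factor receptor needs to reach the surface. Over the cells of a group its level ran from 0 to 290 CPM in AGM (median cell 7.07), from 0 to 379 CPM in yolk sac (median 63.9), from 0 to 289 CPM in liver at E12.5 (median 0.57) and from 0 to 137 CPM in liver at E14.5 (median 0). The pooled level was 36.6 CPM (35.1 to 38.1) in AGM, 87.5 CPM (83.6 to 91.4) in yolk sac, 85.6 CPM (81.5 to 89.9) in liver at E12.5 and 42.3 CPM (39.5 to 45.2) in liver at E14.5. Yolk sac and E12.5 liver thus stood together at the top with overlapping intervals, E14.5 liver came next and AGM was lowest.

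Reads of Gp9 were found in 24 of 48 AGM cells (50%, 35.2 to 64.8), 11 of 16 cells of the yolk sac (68.75%, 41.3 to 89.0), 8 of 16 liver cells at E12.5 (50%, 24.7 to 75.3) and 6 of 16 liver cells at E14.5 (37.5%, 15.2 to 64.6). No cell held more than 30.4% of a group's reads (E12.5 cell 11), so Gp9 was the most evenly spread member after Nfe2 in the 3 smaller groups. Among cells with a read the median level was 56.7 CPM in AGM, 106.9 in yolk sac, 108.2 in liver at E12.5 and 108.4 in liver at E14.5, so among cells with the transcript the E14.5 median was close to that of E12.5 liver. The calls of Gp9 each turned on 1 cell: without yolk sac cell 10 the yolk sac to AGM ratio was 0.94, and without E12.5 cell 11 the ratio of E12.5 liver to AGM was 0.82 and that of E14.5 to E12.5 liver was -0.62, all short of 2-fold.

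Gp1bb (chr16:18620317-18622403, minus strand) encodes the β chain that is bound to glycoprotein Ibα in the same receptor. Its reads lay in 4 cells of 96: 136 reads in AGM cell 23, 12 in AGM cell 1, 11 in yolk sac cell 2 and 5 in yolk sac cell 4. In AGM 91.9% of its reads came from cell 23, and without that cell the AGM level of 2.46 CPM (2.08 to 2.88) was 0.20 CPM. The yolk sac level was 0.72 CPM (0.41 to 1.16) and 0.24 CPM without cell 2, and without AGM cell 23 the yolk sac to AGM ratio turned from -1.01 to 0.51. Reads were found in 0 of 16 cells at E12.5 and 0 of 16 at E14.5, which allows a share of up to 18.75% of cells in each liver group by the floor of 3 cells in 16, and the exact interval reaches 20.6%. Against the floor of 3 reads over the E12.5 group, which is 0.157 CPM, the AGM level was at least 15.6-fold higher. This bound rested on AGM cell 23, without which the AGM level of 0.20 CPM was close to that floor.

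Of the annotated exon bases of Gp1bb, 92.9% (1938 of 2087) are shared with other genes on the same strand, 1902 of them with Sept5, a septin gene just upstream. The counting mode is not given in the sources used here, so reads from the shared bases may have been left uncounted or given to either gene, and the Gp1bb level is uncertain. Sept5 itself had 45 reads in AGM, 2 in yolk sac and 0 in both livers. The exons of the other 6 genes shared 0 bases with any other annotated gene.

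Other subunits of the receptor were scarcer than Gp9. Gp1ba, the subunit that binds von Willebrand factor, had reads in 2 AGM cells (1.69 CPM pooled), 2 yolk sac cells (6.59 CPM, 77.6% from cell 6) and 0 liver cells. Gp5, which is late in megakaryocyte maturation, had 14 reads in AGM cell 12 and 0 elsewhere. Since neither Gp1bb cell of AGM was cell 12, no cell had reads of all 4 receptor subunits.

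Itga2b (chr11:102453297-102470122, minus strand) encodes integrin αIIb, the α chain of the platelet fibrinogen receptor. Levels per cell ran from 0 to 445 CPM in AGM (median 3.69), from 0 to 504 CPM in yolk sac (median 9.42), from 0 to 3.999 CPM in liver at E12.5 and from 0 to 282 CPM in liver at E14.5 (median 0 in both livers). The pooled level was 68.5 CPM (65.2 to 72.1) in yolk sac, 54.4 CPM (52.6 to 56.3) in AGM, 30.4 CPM (28.03 to 32.84) in liver at E14.5 and 0.58 CPM (0.29 to 1.03) in liver at E12.5. E12.5 liver was the low point, with 11 reads in all, 7 in cell 13 and 4 in cell 1, and a level of 0.23 CPM without cell 13.

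Detection of Itga2b followed the same pattern. Reads were present in 26 of 48 AGM cells (54.2%, 39.2 to 68.6), 9 of 16 cells of the yolk sac (56.25%, 29.9 to 80.2), 2 of 16 liver cells at E12.5 (interval 1.55% to 38.3%) and 4 of 16 liver cells at E14.5 (25%, 7.27 to 52.4). Yolk sac cell 15 held 46.8% of the group's reads, and without it the yolk sac level was 38.97 CPM, below AGM. At E14.5 the 4 cells held 97 (cell 1), 92 (cell 5), 22 (cell 6) and 414 reads (cell 15), and without cell 15 the level was 11.04 CPM and the ratio to E12.5 was 2.93, still past 2-fold.

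Itgb3 (chr11:104608000-104670476) encodes integrin β3, which pairs with αIIb on platelets and with αv on endothelial and other cells. Levels per cell ran from 0 to 288 CPM in AGM (median 6.53), from 0 to 113 CPM in yolk sac (median 3.53) and from 0 to 25.99 CPM in liver at E12.5 (median 0). Pooled, Itgb3 stood at 48.8 CPM (47.1 to 50.6) in AGM, 24.1 CPM (22.1 to 26.3) in the yolk sac and 2.47 CPM (1.81 to 3.28) in liver at E12.5. Without yolk sac cell 15 the yolk sac to AGM ratio was -1.38, past 2-fold. The pooled levels of Itgb3 were thus ordered AGM, yolk sac, E12.5 liver, and E14.5 liver had 0 reads. Their intervals do not overlap but cover the counting of reads only, not the spread between cells. The standard deviation between cells was 73.7 CPM in AGM and 38.1 CPM in yolk sac.

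Itgb3 had reads in 30 of 48 AGM cells (62.5%, 47.4 to 76.0), 8 of 16 cells of the yolk sac (50%, 24.7 to 75.3) and 3 of 16 liver cells at E12.5 (18.75%, 4.05 to 45.6). The 3 E12.5 cells held 26 (cell 1), 11 (cell 5) and 10 reads (cell 13), and without cell 1 the level was 1.16 CPM. The 0 of 16 liver cells at E14.5 allow a share of up to 18.75% by the floor of 3 cells, with an exact interval that reaches 20.6%, and against the floor of 3 reads the E12.5 level was at least 16.9-fold higher. The E14.5 cells with Itga2b therefore had no read of its platelet partner.

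Pf4 (chr5:90772435-90773383) encodes platelet factor 4, a chemokine stored in α-granules. Levels per cell ran from 0 to 218.2 CPM in AGM, from 0 to 85.5 CPM in yolk sac, from 0 to 1515 CPM in liver at E12.5 and from 0 to 23.2 CPM in liver at E14.5, with a median cell at 0 in every group. The pooled level was 35.3 CPM (32.7 to 38.1) in liver at E12.5, 23.6 CPM (22.4 to 24.9) in AGM, 12.6 CPM (11.2 to 14.2) in the yolk sac and 3.93 CPM (3.12 to 4.89) in liver at E14.5. The top place of E12.5 liver rested on cell 8, the well with 1011 genes and the high macrophage marker sum, which held 56.3% of the reads; without it the E12.5 level was 15.6 CPM, below AGM.

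Detection placed the groups in another order, with Pf4 in 20 of 48 AGM cells (41.7%, 27.6 to 56.8), 6 of 16 cells of the yolk sac (37.5%, 15.2 to 64.6), 4 of 16 liver cells at E12.5 (25%, 7.27 to 52.4) and 3 of 16 liver cells at E14.5 (18.75%, 4.05 to 45.6). The 4 E12.5 cells held 3 (cell 1), 244 (cell 2), 379 (cell 8) and 47 reads (cell 14), and the 3 E14.5 cells held 18 (cell 4), 30 (cell 5) and 33 (cell 12). In yolk sac cell 6 held 57.1% of the reads, and without it the level was 5.92 CPM. In E14.5 liver the level without cell 12 was 2.53 CPM. The intervals on these shares overlap between all 4 groups.

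In AGM, Pf4 was read beside the macrophage list because macrophages can transcribe it. The median summed macrophage level was 599 CPM in the 20 cells with Pf4 and 414 CPM in the 28 without, and its part in the Pf4 level was not tested. This sum was mostly Lyz2, the lysozyme gene, which stood at 673 CPM in 46 of 48 AGM cells, while the other 11 markers together stood at 50.3 CPM. Without Lyz2 the median sum was 2.13 CPM in cells with Pf4 and 12.505 CPM in cells without, the opposite order. Of the 12 markers 9 had a read in AGM, with Adgre1, Fcgr1 and Cx3cr1 at 0, and the summed level ran from 0 to 6526 CPM. In yolk sac 7 of 12 had a read (0 to 864 CPM; C1qa, C1qb, C1qc and Trem2 among those at 0), in liver at E12.5 8 of 12 (0 to 26991 CPM; Adgre1, Cx3cr1 and Trem2 among those at 0) and in liver at E14.5 7 of 12 (1.02 to 2262 CPM; Csf1r, Mrc1, Cx3cr1 and Trem2 among those at 0).

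Vwf (chr6:125546774-125686679) encodes von Willebrand factor, which megakaryocytes and endothelial cells make and store. Levels per cell ran from 0 to 1155 CPM in AGM (median 116), from 0 to 230 CPM in yolk sac, from 0 to 260 CPM in liver at E12.5 and from 0 to 99.1 CPM in liver at E14.5, with a median of 0 outside AGM. Pooled, Vwf stood at 233.1 CPM (229.3 to 237.0) in AGM, 39.3 CPM (36.76 to 42.01) in yolk sac, 25.8 CPM (23.6 to 28.2) in liver at E12.5 and 9.62 CPM (8.33 to 11.1) in liver at E14.5. AGM was 5.93-fold above yolk sac and 9.03-fold above E12.5 liver.

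Vwf was detected in 39 of 48 AGM cells (81.25%, 67.4 to 91.1), 5 of 16 cells of the yolk sac (31.25%, 11.02 to 58.66), 1 of 16 liver cells at E12.5 (6.25%, 0.16 to 30.2) and 3 of 16 liver cells at E14.5 (18.75%, 4.05 to 45.6). The AGM interval lies above that of each other group, which no other member showed, but it counts cells of 1 sample and does not cover differences between embryos. The 5 yolk sac cells were cells 1, 2, 3, 4 and 6 with 150, 124, 112, 57 and 434 reads, and without cell 6 the yolk sac level was 21.7 CPM. At E12.5 all 492 reads came from cell 2. At E14.5 it stood at 99.1 CPM in cell 3, 63.0 CPM in cell 9 and 0.89 CPM in cell 8; without cell 9 the level was 4.96 CPM and without cell 3 it was 5.34 CPM. Cells 3 and 8 are among the wells with high erythroid sums, and the part of that in the Vwf level was not tested.

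**Figure D2:**
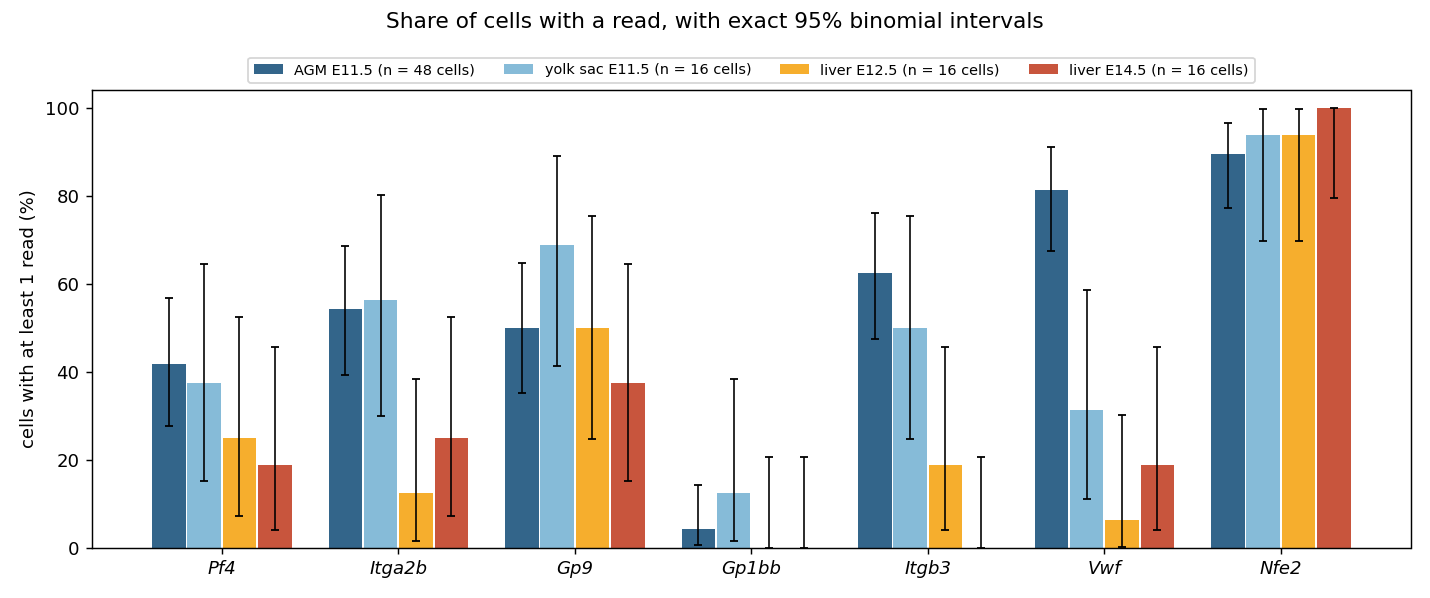
Share of cells with at least 1 read of each gene (%), by group, with exact 95% binomial intervals. The Vwf share is 81.25% in AGM and 6.25% to 31.25% elsewhere, Itgb3 and Itga2b are lower in both livers than at E11.5, and Nfe2 is at 89.6% to 100% throughout.

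Endothelial markers were set beside Vwf and Itgb3. The summed level of the 12 markers had a median of 2011 CPM in AGM (336 to 20321), 1569 CPM in yolk sac (97.0 to 2935), 1536 CPM in liver at E12.5 (7.99 to 3356) and 1097 CPM in liver at E14.5 (411 to 2873). All 12 had reads in both E11.5 groups, 11 at E12.5 (Kdr at 0) and 11 at E14.5 (Cldn5 at 0). Of the 12, 7 were at least 2-fold lower in yolk sac than in AGM and 8 at least 2-fold lower in liver at E12.5 than in AGM, with medians of -1.06 and -1.71. Vwf and Itgb3 thus stood lower in the same groups as these markers, and the part of endothelial transcription in their levels was not tested. Within AGM the median endothelial sum was 2071 CPM in cells with a Vwf read and 1935 CPM in the 9 cells without, and 2336 CPM with and 1904 CPM without Itgb3.

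Nfe2 (chr15:103248212-103258403, minus strand) encodes the large subunit of the transcription factor NF-E2. Levels per cell ran from 0 to 1168 CPM in AGM (median 142.9), from 0 to 963 CPM in yolk sac (median 279), from 0 to 1601 CPM in liver at E12.5 (median 500) and from 107 to 1406 CPM in liver at E14.5 (median 535). The pooled level was 604 CPM (593 to 615) in liver at E12.5, 513 CPM (504 to 523) in liver at E14.5, 310 CPM (302 to 317) in the yolk sac and 224.96 CPM (221.2 to 228.8) in AGM. The livers were therefore the high groups for Nfe2, the opposite order to Vwf and Itgb3, and no cell held more than 15.2% of a group's reads.

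Reads of Nfe2 were found in 43 of 48 AGM cells (89.6%, 77.3 to 96.5), 15 of 16 cells of the yolk sac (93.75%, 69.8 to 99.8), 15 of 16 liver cells at E12.5 (93.75%, 69.8 to 99.8) and 16 of 16 liver cells at E14.5 (100%, 79.4 to 100). The E12.5 cell without it was cell 8. Mean log2 levels per cell, which weigh each cell equally, put E14.5 above E12.5 by 0.36, but this sign rested on E12.5 cell 8: without it the difference was -0.21, beside a pooled ratio of -0.23 over all cells. The erythroid sum, over 10 markers, had a median of 3.06 CPM in AGM (0 to 306, 9 with a read, Slc4a1 at 0), 1.33 CPM in yolk sac (0 to 915, 8 with a read, Slc4a1 and Rhd at 0), 303 CPM in liver at E12.5 (0 to 9359, 9 with a read, Slc4a1 at 0) and 96.9 CPM in liver at E14.5 (4.18 to 190221, 10 with a read). Its part in the Nfe2 level was not tested, and without E14.5 cells 3, 8, 13 and 16 the E14.5 to E12.5 ratio of Nfe2 was -0.43.

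Single cells differed in how many of the 7 genes they held. The median was 4 genes per cell in AGM (1 to 7), 3 in yolk sac (1 to 7), 2 in liver at E12.5 (1 to 5) and 2 in liver at E14.5 (1 to 4). At least 2 were present in 45 of 48 AGM cells (93.75%, 82.8 to 98.7), 14 of 16 cells of the yolk sac (87.5%, 61.7 to 98.4), 9 of 16 liver cells at E12.5 (56.25%, 29.9 to 80.2) and 10 of 16 liver cells at E14.5 (62.5%, 35.4 to 84.8). At least 4 were present in 28 of 48 (58.3%, 43.2 to 72.4), 6 of 16 (37.5%, 15.2 to 64.6), 3 of 16 (18.75%, 4.05 to 45.6) and 1 of 16 cells (6.25%, 0.16 to 30.2). The AGM cells sampled thus held more of the set than the E14.5 cells sampled, while yolk sac and E12.5 liver lay between. For at least 4 genes the AGM and E14.5 intervals do not overlap, and those of yolk sac and E12.5 liver overlap their neighbours. These intervals count cells of 1 sample per group, so they do not cover differences between embryos. Without Nfe2 and Itga2b, which other blood cells also transcribe, at least 2 of the other 5 genes were present in 75% of AGM and 50% of yolk sac cells, and in 25% at E12.5 and 25% at E14.5.

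**Figure D3:**
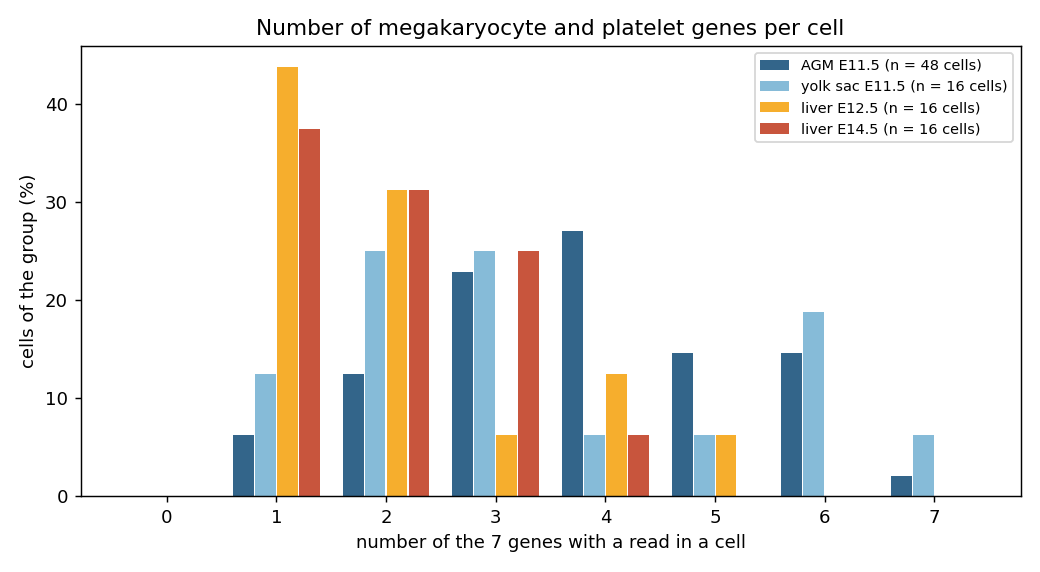
Percent of the cells of each group (vertical axis) that had reads of 1 to 7 of the genes (horizontal axis); bars are coloured by group and no cell had 0. Liver cells pile up at 1 to 3 genes and AGM cells at 3 to 6, and only 1 AGM and 1 yolk sac cell had all 7.

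The cells with many of the genes were also those with many genes detected of any kind, most clearly in yolk sac and E12.5 liver. Across cells the number of the 7 genes and the number of all genes with a read had Pearson correlations of 0.44 over 48 AGM cells, 0.87 over 16 yolk sac cells, 0.80 over 16 E12.5 cells and 0.27 over 16 E14.5 cells; both counts share the cell's library and its depth. Cells with at least 4 of the 7 had a median of 8767 genes in yolk sac, against 4780 in the others, and the values in AGM were 5818.5 and 5135. Yolk sac cell 2 and AGM cell 1, the cells with all 7, had 10727 and 10998 genes. Without cells of over 9000 genes, at least 4 of the 7 were present in 54.5% of AGM and 23.1% of yolk sac cells, and in 13.3% at E12.5 and 6.25% at E14.5. With all cells reduced at random to 690000 reads, and 5, 0, 2 and 2 shallower cells omitted, the shares were 58.1%, 37.5%, 21.4% and 7.14%. Whether 1 well held more than 1 cell was not tested.

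Combinations of 3 or more were found mainly at E11.5. Pf4, Itga2b and Gp9 were together in 10 of 48 AGM cells, 5 of 16 cells of the yolk sac, 1 of 16 liver cells at E12.5 (cell 1) and 1 of 16 liver cells at E14.5 (cell 5). All the genes other than Gp1bb were together in 7 AGM cells and 4 yolk sac cells (cells 1, 2, 3 and 6) and in 0 cells of either liver. Both chains of the fibrinogen receptor were together in 18 AGM, 5 yolk sac, 2 E12.5 and 0 E14.5 cells. Nfe2 was the only gene of the set in 1 AGM, 1 yolk sac, 6 E12.5 and 6 E14.5 cells, and all 5 yolk sac cells with Vwf also had Itga2b, Gp9 and Nfe2.

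Pairs in AGM, the group with most cells, showed which genes shared cells. Of the 20 cells with Pf4, 14 had Itga2b (70%), against 12 of the 28 without Pf4 (42.9%), and 13 had Gp9 (65%), against 11 of 28 (39.3%). Of the 26 cells with Itga2b, 16 had Gp9 (61.5%), against 8 of the 22 without (36.4%). Both chains of the fibrinogen receptor shared cells less markedly, as 18 of the 26 Itga2b cells had Itgb3 (69.2%) and 12 of the 22 others did (54.5%). Vwf was present in similar shares with and without Itga2b (80.8% and 81.8%), and Itgb3 was present in 58.3% of cells with Gp9 and 66.7% of cells without. Each percentage is over 20 to 28 cells, cells with Pf4 had a median of 6007 genes against 5350 in those without, and the part of detection depth in the pairing was not tested.

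**Figure D4:**
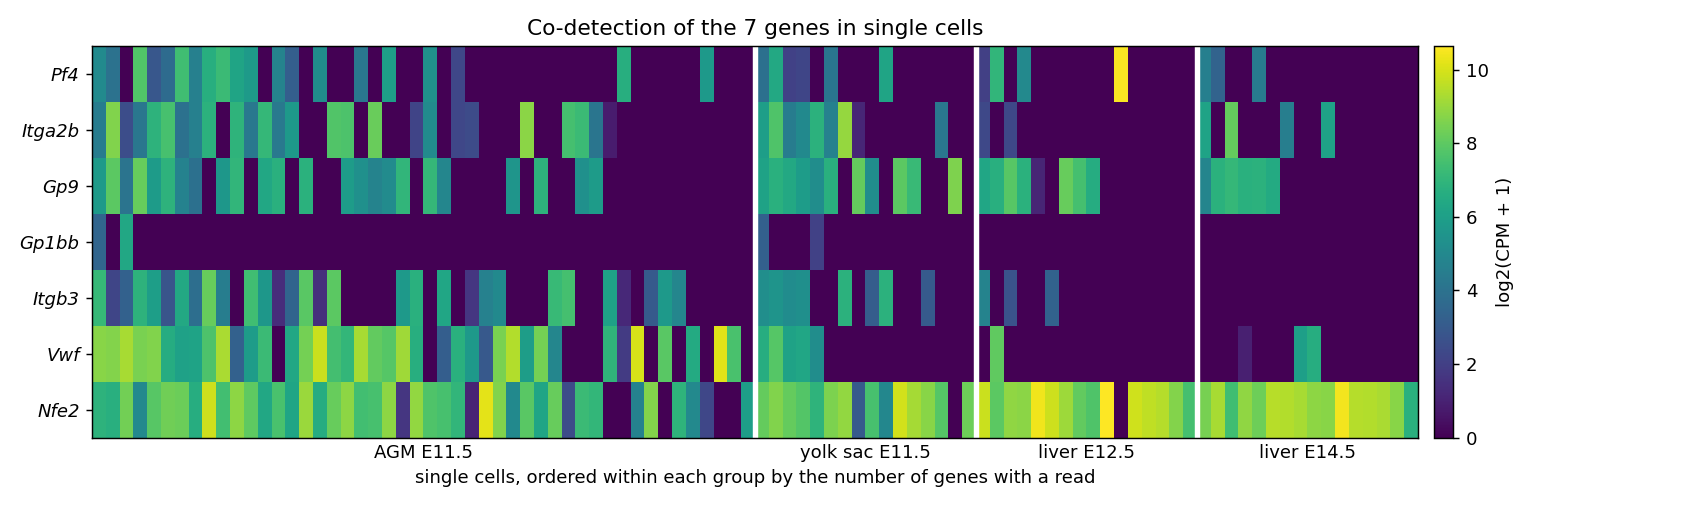
Level of each of the 7 genes (rows) in each cell (columns), coloured by log2(CPM + 1) from 0 (dark) upward, with cells ordered within each group by the number of the genes detected. The AGM and yolk sac blocks hold the cells with 4 or more genes in greater number, and in the liver blocks most cells show Nfe2 with 0 to 2 others.

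Correlations of level within AGM were weak for most of the set. Between pairs of the genes other than Gp1bb, Pearson's r of log2(CPM + 1) over 48 cells ran from -0.07 to 0.32. Gp1bb, with reads in 2 AGM cells, was left out. Among 10202 other genes with reads in at least 10% of AGM cells, r of at least 0.6 was reached with Nfe2 only: Slc9a3r1, a scaffold protein of the cell cortex (0.70), Dok2, an adaptor of tyrosine kinase signalling (0.69), and Phgdh, the first enzyme of serine synthesis (0.60). For Pf4, Itga2b, Gp9, Itgb3 and Vwf no gene reached it in AGM. These points share the depth of each library, and the ranks are a description.

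Further genes of the lineage were read from 3 lists: platelet receptors, granule and platelet cytoskeleton genes, and megakaryocyte transcription factors. For yolk sac over AGM, where 8.83% of all genes were called higher and 21.6% lower (median -0.23), 6 of 11 tested receptors were at least 2-fold higher and 1 lower (median 1.21), 4 of 14 granule and cytoskeleton genes were higher and 2 lower (median 0.20), and 1 of 13 transcription factors was higher and 1 lower (median 0.11). The receptors above AGM included Treml1, a platelet α-granule receptor that was at 0 in AGM and at 6.72 CPM in 5 yolk sac cells (57.3% from cell 13), and P2ry12, the ADP receptor, at 0 in AGM and with 71 reads in 1 yolk sac cell, cell 13. When no cell could hold over 50% of the reads, 2 higher and 0 lower receptors, 1 higher and 2 lower granule and cytoskeleton genes, and 1 higher and 1 lower transcription factor were left, against 3.64% and 13.2% of all genes. Ppbp, another platelet chemokine, stood at 39.5 CPM in yolk sac against 7.42 CPM in AGM, but 96.4% of it came from cell 6, and it was 1.57 CPM without that cell.

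Plek and Myl9 were more evenly spread in the group where they were higher, with at most 22.04% of the reads in 1 cell. Plek, pleckstrin, a protein kinase C substrate of platelets, was at 84.2 CPM in 13 yolk sac cells against 23.3 CPM in 17 AGM cells (1.81). Myl9, a myosin light chain also abundant in smooth muscle, was lower in yolk sac, at 5.25 CPM against 106 CPM in AGM (-4.10), and without yolk sac cell 6 the ratio was -5.41. Among the transcription factors Gfi1b, which megakaryocytes and red cells both need, was at 124 CPM in yolk sac and 45.8 CPM in AGM (1.42), but without yolk sac cell 12 its level was 73.7 CPM and the ratio 0.68, short of 2-fold. Lyl1 was lower in yolk sac, at 2.33 against 12.2 CPM (-1.99).

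For E12.5 liver over AGM, where 16% of all genes were called higher and 26.7% lower (median -0.24), 1 of 10 tested receptors was at least 2-fold higher and 4 lower (median -0.11), 2 of 13 granule and cytoskeleton genes were higher and 7 lower (median -1.03), and 3 of 14 transcription factors were higher and 0 lower (median 0.44). The stricter rule left 0 higher and 2 lower receptors, 2 higher and 6 lower granule and cytoskeleton genes, and 2 higher and 0 lower transcription factors, against 6.25% and 17.4% of all genes. Clec1b, the platelet receptor for podoplanin, was at 10.003 CPM in AGM and had 0 reads at E12.5, and Myl9 likewise had 0 reads. Treml1 was at 15.6 CPM at E12.5, with 99.7% from 1 cell. The higher transcription factors were Zfpm1 (FOG1, the partner of GATA1), at 27.4 against 8.10 CPM, Mafk, a small Maf protein that dimerises with Nfe2, at 72.4 against 22.8 CPM, and Gfi1b, at 118 against 45.8 CPM. Each of these 3 calls turned on 1 cell. Without E12.5 cell 4 the level of Zfpm1 was 16.2 CPM and its ratio 0.92, and Gfi1b stood at 66.9 CPM with a ratio of 0.54. Mafk drew 52.6% of its reads at E12.5 from cell 15 and stood at 36.4 CPM without it, with a ratio of 0.65, while omitting AGM cell 45 gave 2.91.

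For E14.5 over E12.5 liver, where 22.2% of all genes were called higher and 21.6% lower (median -0.07), 1 of 7 tested receptors was higher and 3 lower (median -0.41), 3 of 12 granule and cytoskeleton genes were higher and 3 lower (median -0.07), and 1 of 14 transcription factors was higher and 1 lower (median -0.30). The stricter rule left 1 gene higher in each of the 3 lists and 0 lower, against 8.12% and 7.13% of all genes. Gata1, which drives erythroid and megakaryocyte genes, was at 47.7 CPM in 5 cells at E14.5 and 0.21 CPM in 1 cell at E12.5, and its ratio without E14.5 cell 3 was 4.79. Mafk was lower, at 7.29 against 72.4 CPM (-3.15), a call that the stricter rule did not keep: without E12.5 cell 15 the ratio was -2.18, and without E14.5 cell 9, which held 90% of the E14.5 reads, it was -5.36. Tubb1, the β1-tubulin of the platelet marginal band, was read in 2 E14.5 cells only (7.38 CPM, 86.8% from cell 16, without which the ratio was 1.02). The erythroid markers differed between the livers too, with 8 of 10 at least 2-fold higher and 2 lower at E14.5.

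**Figure D5:**
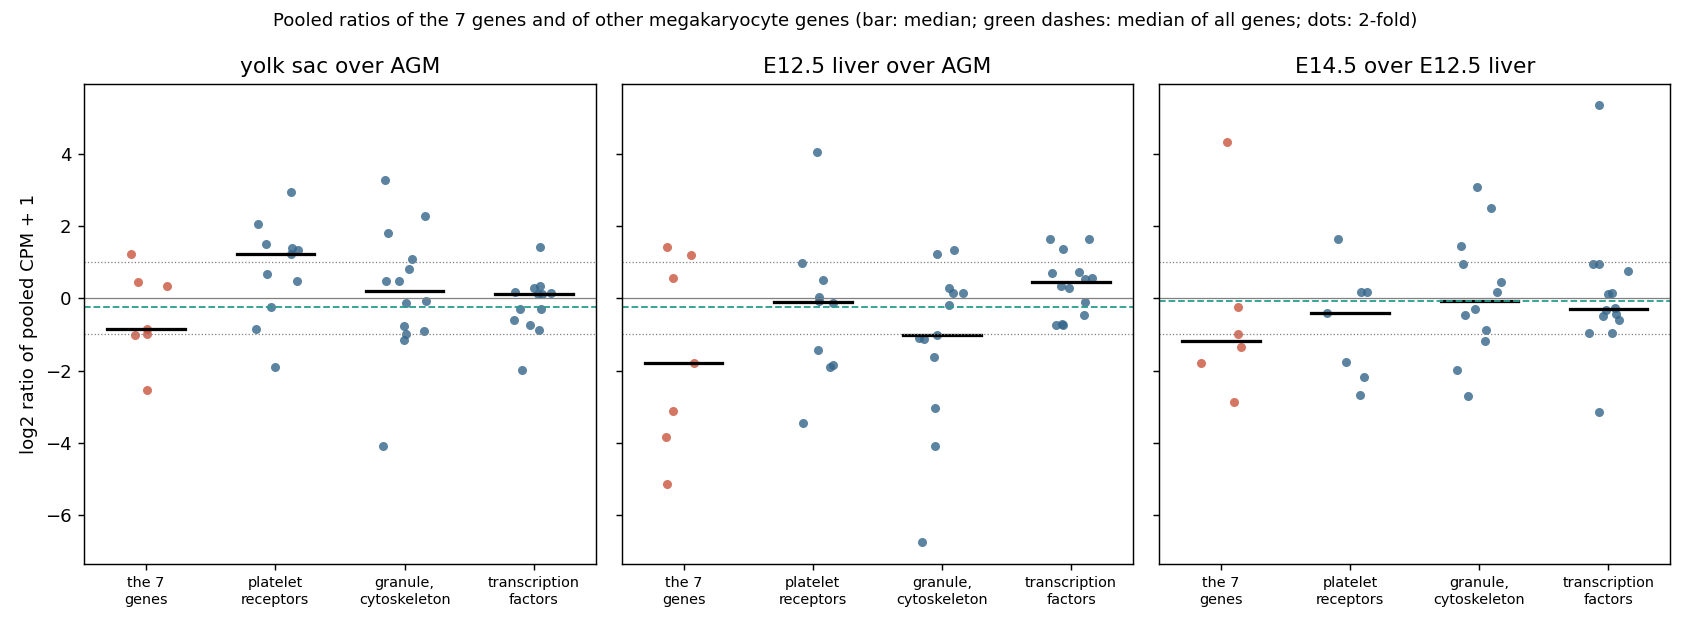
Log2 ratio of pooled CPM + 1 for each gene of the set, and of the 3 other lineage lists, in the 3 contrasts; each point is a gene, bars are list medians, the dashed line is the median of all genes and dotted lines mark 2-fold. The median of the 7 genes lies below that of all genes in each contrast (-0.85, -1.79 and -1.17), and single genes spread from -5.13 to 4.31.

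Set against the markers that define mature megakaryocytes and platelets, the label of the gene set describes the genes and not the cells. Gp1ba and Gp5 had 0 reads in both livers, Tubb1 had 0 reads outside E14.5, and F13a1 was read in 2 yolk sac cells only. Pf4 reached its highest level, 1515 CPM, in E12.5 cell 8, the well with the highest macrophage and erythroid sums of its group. In yolk sac, 1 cell, cell 6, held the most reads of several of these genes. It had 57.1% of the group's reads of Pf4, 49.5% of Vwf and 96.4% of Ppbp. It also had 84.4% of the granule gene Thbs1 and 77.6% each of Gp1ba and F13a1. Other cells led for Itga2b and Itgb3 (cell 15), Gp9 (cell 10), and Treml1 and P2ry12 (cell 13). No cell is named a megakaryocyte here.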

How the data were processed

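Single sorted cells were sequenced from cDNA made with a SMART-Seq kit, per the labels' protocols. The values the authors deposited are whole-number, unnormalized counts of reads for each gene, in 1 table of 96 columns, and all columns were matched to samples by name, with 0 columns unmapped. FastQC, Trimmomatic 0.36, STAR, HTSeq and the mm10 build are named, without role or order, per the submitters' processing notes; the annotation release, strand setting and counting mode are not given in the sources used here.

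Rows sharing a symbol (113 of 19949) were summed to 19836 genes. Cells needed 1000 genes detected, which removed 0. Groups follow the titles, and each is 1 sample because no animal or litter is named, so p-values were not computed. Reads were pooled per group, scaled to CPM and compared as log2(CPM + 1) ratios for genes with at least 30 reads over all cells and more than 3 reads in at least 1 of the groups compared. A gene at 0 was given a floor of 3 reads over the group. Coordinates and exons are from GENCODE M21 (GRCm38, mm10), matched by gene ID; 6 of 7 ID versions were identical to the table's, and Gp1bb differed in version.

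The members, gene lists and motifs were chosen with earlier results of these data known. All 7 members were named, and of each other list at most 4 genes per comparison with the largest ratio; for likeness in AGM, the 3 genes of highest r per member with r of at least 0.6. F13a1, Gp1ba and Gp5 are named in addition, chosen after their values were seen, where that rule did not name them, and a gene that the rule names is left out of the text. The list of mast cell and basophil markers matched 3 of 8 genes, with median sums of 41.4, 14.4, 47.6 and 17.4 CPM in AGM, yolk sac, E12.5 and E14.5 liver. Alternatives were other cell filters, mean CPM per cell, median-of-ratios scaling, thinned reads, 10 CPM added, a floor in place of the added CPM, no minimum on reads, and cells left out. Leaving out cells with over 9000 genes, AGM cells numbered 1 to 16, leaving out E14.5 cells 3, 8, 13 and 16, leaving out the top cell of a gene of the other lists, leaving out cells from the mean log2 levels, and the macrophage sum without Lyz2 were chosen after seeing the data. The calculation was tested on simulated Poisson counts with no added spread between cells. Such counts check the arithmetic and cannot show how often a call rests on a single cell. Python 3.11.15, numpy 2.4.6, pandas 2.3.3, SciPy 1.17.1 and matplotlib 3.10.9 were used.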

Additional observations from a re-analysis of the deposited data

How the results depend on the processing

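Each group is 1 sample, so differences between embryos are not covered, and a share from 16 cells has a wide interval. No paired analysis was possible because cell numbers name no animal or litter, and the results come from no test. All 20 member ratios kept their sign under mean CPM per cell, median-of-ratios scaling, 10 CPM added, the floor of 3 reads, no minimum on reads and omission of cells with over 9000 genes. The difference of mean log2 levels per cell had the opposite sign for Gp1bb, yolk sac over AGM (0.13), and Pf4, E12.5 liver over AGM (-0.65). It also did for Vwf (0.35) and Nfe2 (0.36), E14.5 over E12.5 liver. For Gp9, E12.5 liver over AGM, it was 0.20, and leaving out any 1 of 7 cells turned its sign. Pf4, E12.5 liver over AGM, was -0.56 with at least 2000 genes per cell, -1.03 thinned and -0.32 without top cells, and Itga2b, yolk sac over AGM, was -0.27 without top cells. Size factors shifted the 3 contrasts by 0.096, 0.016 and 0.015 on the log2 scale.

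Signs turned for Gp1bb, yolk sac over AGM, at 0.039 without the top cell of each group and between -1.48 and 0.51 when cells were left out in turn, and for Vwf, E14.5 over E12.5 liver, at 2.58 and between -2.17 and 3.41. The median of the members was, for yolk sac over AGM, -1.004 thinned, -0.22 with 10 CPM added, -0.27 without top cells and -0.99 to 0.29 with each cell left out (highest without AGM cell 23). For E12.5 liver over AGM it was -1.54 as mean CPM, -1.58 thinned, -0.32 with 10 CPM added, -3.17 with the floor, -0.32 without top cells and -1.82 to -0.27 with each cell left out (highest without AGM cell 23). For E14.5 over E12.5 liver it was -0.75 as mean CPM, -0.62 thinned, -0.59 with 10 CPM added, -0.58 without top cells, -1.45 without E14.5 cells 3, 8, 13 and 16, and -1.36 to -0.64 with each cell left out (highest without E12.5 cell 2). The number of members called higher in yolk sac was 0 without yolk sac cell 10, and the number called lower was 1 as mean CPM, 4 thinned, 1 by median-of-ratios, 1 with 10 CPM added and 1 without yolk sac cell 5. In E12.5 liver over AGM the number higher was 1 thinned, 1 without top cells and 1 without E12.5 cell 11. For the livers the number higher at E14.5 was 2 without top cells or without E12.5 cell 2, and the number lower was 2 as mean CPM, 2 thinned, 1 with 10 CPM added, 2 without top cells and 2 without E12.5 cell 2. Without Nfe2 and Itga2b, at least 1 member was present in 62.5% of cells at E12.5 and 50% at E14.5, at least 2 in 75% of AGM and 50% of yolk sac cells and 25% at E12.5 and E14.5, and at least 4 in 18.75% of AGM and 0% of either liver; in AGM cells 1 to 16, at least 4 of 7 were present in 75%. The cause of these changes was not tested.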
